A study of Mus musculus with 12 samples.

Results

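Non-cycling basal keratinocytes are the cells of the deepest layer of the esophageal epithelium that are not passing through division. Here they were chosen by their counts, separately in each mouse. A cell had to hold at least 200 detected genes and at most 20% mitochondrial counts. Cells with at least 3 counts of a mitosis gene list, at least 4 of a DNA replication list, or at least 0.4% of their counts on cornification genes were set aside. The rest were ranked by log2((Krt4 + Krt13 + 1)/(Krt5 + Krt14 + Krt15 + 1)) and cut into 4 equal bands, of which band 1, the lowest 25% of the ranked cells, was taken as basal. Bands 2, 3 and 4 hold 693, 691 and 693 cells. That gave 691 basal cells of 2768 ranked cells, of 4317 kept cells and of 4386 barcodes in all. Aged mice 1, 2 and 3 gave 34, 200 and 98 basal cells, and young mice 1, 2 and 3 gave 145, 94 and 120.

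Esophageal epithelium was peeled from C57BL/6 mice and its cells were profiled with inDrop, a droplet method that tags the RNA of each cell with a barcode carried by a gel bead. The labels also name a modified Smart-Seq2 protocol with no further detail, and the values are read here as inDrop counts. The 12 libraries are 2 from each of 3 aged mice (at least 18 months) and 3 young mice (at most 4 months), with no transgene, deletion or treatment named for either group. The labels give no exact age, sex or preparation date for a mouse, and their titles leave it unsaid whether a numbered mouse was 1 animal or a pool. The mouse is the replicate in every comparison, and the mouse numbers carry no order.

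The esophagus is lined by a stratified squamous epithelium with no appendages. Its basal cells rest on the basement membrane, to which hemidesmosomes tie their keratin 5 and keratin 14 filaments, and they are the cells of this tissue that divide. A basal cell that differentiates lets go of the membrane, switches to keratins 4 and 13, moves towards the lumen and is finally shed. Since the ranking used Krt4, Krt13, Krt5, Krt14 and Krt15, their values here, aged against young included, describe the choice and are given without a test. The same holds for any difference between basal and other cells.

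Summed counts of the basal cells ran from 79418 in aged mouse 1 to 322312 in aged mouse 2, and median counts per cell from 1712 to 2260.5 over the 6 mice. Between 88.1% and 97.8% of barcodes were common to both libraries of 1 mouse, whose counts were summed, against 0% to 0.656% between mice. Aged mouse 1 is the shallowest, so 1 count there is worth more CPM (counts scaled to a common library total) than in any other mouse. In all, 75 basal cells had a barcode 1 base away from another of the same mouse, and 3 were called doublets in a library.

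The ratio at which the basal band ended was not the same in every mouse. The last cell inside and the first cell outside lay at −2.18 and −2.17 in aged mouse 1, −1.0 and −0.95 in aged mouse 2, and −1.76 and −1.74 in aged mouse 3. They lay at −1.90 and −1.87 in young mouse 1, −2.47 and −2.46 in young mouse 2, and −1.68 on both sides in young mouse 3. Aged mouse 2 therefore gave basal cells with more keratin 4 and 13 relative to the basal keratins than any other mouse. The edge averaged −1.65 ± 0.60 over aged mice against −2.01 ± 0.41 over young mice (SD, 3 mice each), and the groups overlapped. This edge is the value the rule cuts at, so no test is given.

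Of the 5 markers given for these cells, Krt5, Krt14 and Krt15 were part of the ranking, so their high levels follow from it, and Col17a1 and Dst were not. Krt5, the type II keratin of basal cells, stood at 8940, 7148 and 8407 CPM in aged mice 1, 2 and 3. Its level was 9873, 8584 and 8910 CPM in young mice 1, 2 and 3, an order kept for all values below. Krt14, its type I partner, stood at 5062, 3692 and 6738 CPM in aged and 6956, 6336 and 5943 CPM in young mice. Krt15, a type I keratin often used to mark the least differentiated basal cells, stood at 8273, 8088 and 9858 CPM in aged and 8640, 10582 and 10207 CPM in young mice. Aged mouse 2 had the lowest level of each of these keratins, and the groups overlapped in all of them. Their log2 fold changes with age were −0.09 for Krt5, −0.24 for Krt14 and −0.10 for Krt15.

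The remaining markers belong to the hemidesmosome. Col17a1, the transmembrane collagen XVII, stood at 1284, 1139 and 1591 CPM in aged and 1621, 1522 and 1568 CPM in young mice. Dst, the plakin whose epithelial form links keratin to the hemidesmosome, stood at 2481, 2408 and 2177 CPM in aged and 1840, 1574 and 2613 CPM in young mice. Aged and young mice overlapped in both, and neither passed the threshold with age (log2 fold change −0.16 and 0.30, edgeR adjusted p = 0.95 and 0.925). From band 1 to band 4 the median over mice went from 1545 to 18.5 CPM for Col17a1 and from 2292 to 135 CPM for Dst, and all 6 mice had less of both in band 4 than in band 1. Krt5 had medians of 8747, 8424, 3400 and 235 CPM in bands 1 to 4, so bands 1 and 2 lay close together. Krt14 had 6140, 3232, 502 and 21.8 CPM, a wider step between bands 1 and 2. For Krt15 the medians were 9249, 6952, 2485 and 779 CPM. Krt13, a keratin of the layers above, stood at 1435, 2131 and 1616 CPM in aged and 1977, 1138 and 2157 CPM in young basal cells, with a log2 fold change of 0.06 whose sign turns with scaling by library size alone.

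**Figure D1:**
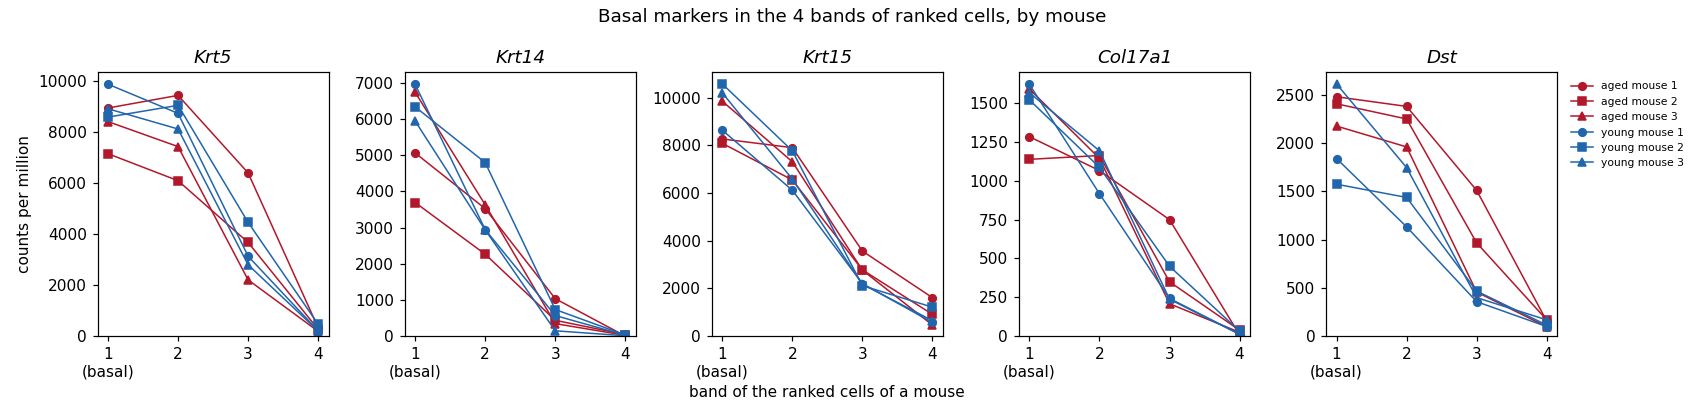
Level of each basal marker (vertical axis, CPM) in the 4 bands of ranked cells (horizontal axis), with 1 line for each mouse, aged in red and young in blue. Every marker is lower in band 4 than in band 1, with Krt15 still at 465 to 1613 CPM in band 4. In band 1 Col17a1 lies between 1139 and 1621 CPM.

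Of the markers of other cell types, those of fibroblasts had the most counts in the basal cells. No lymphocyte marker found in the files had a count, the endothelial list had 3 counts in all mice together, and of the myeloid list 6 of 9 genes were at 0, with summed levels of 25.2 to 82.2 CPM in aged and 48.7 to 87.1 CPM in young mice. The fibroblast list had 598 counts, of which 540 were Dcn, encoding the proteoglycan decorin, which every mouse had at 60 to 150 counts. Apart from Dcn the list had 2 counts in aged mouse 1, 56 in young mouse 2 and 0 in the other 4 mice. In young mouse 2 they lay mostly in 2 cells with at least 10 fibroblast-list counts each. Summed over the list the levels were 881, 465 and 508 CPM in aged and 222, 691 and 416 CPM in young mice, which overlap. Superficial markers summed to 113 to 475 CPM, with Sprr1b, Krt78 and Ivl at 0 in all 6 mice. This list holds Sprr3, Slpi, Crct1, Cnfn and Sprr1a, the cornification genes on which the rule set cells aside. Their low level therefore follows from the rule. Sprr2a3, which the rule did not use, had a median of 131 CPM in band 1 and 160 CPM in band 4.

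Many genes that the ranking did not use lay the same way in each mouse. Of 2231 genes with at least 100 CPM on average in band 1 or band 4, 661 were higher in the basal cells of all 6 mice and 607 were lower in all 6. The most basal-weighted of them, by the median over mice of log2((CPM + 10)/(CPM + 10)), included genes of attachment, matrix and signalling. Col17a1 led at 5.86, a median over mice with a range of 4.58 to 6.21, and Itgb4, the beta chain of the hemidesmosomal integrin, stood at 4.40 (4.03 to 5.09). Lamb3, a chain of the laminin that anchors hemidesmosomes, stood at 4.58 (4.00 to 5.45). Secreted and matrix-binding proteins were next to them, with Wfdc2 at 5.54, Dcn at 5.08, Smoc2 at 4.87, Efemp1 at 4.63, Igfbp3 at 4.58 and Igfbp7 at 4.36. Jag2, a ligand of Notch receptors, stood at 5.11 (4.72 to 5.73), and Snai2, a transcription factor of the Snail family, at 4.53 (3.51 to 5.20). Dlk2, a Delta-like surface protein, stood at 4.62, Antxr1, a receptor for collagen and anthrax toxin, at 4.59, and Cav1, the coat protein of caveolae, at 4.41. Ccn1, described further with age, stood at 4.57 (3.36 to 6.28).

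Among the 15 genes with the most negative ratios to band 4 were several known from keratinocyte differentiation. Krtdap, a secreted protein of differentiating keratinocytes, had the most negative median ratio at −7.75, a range of −10.12 to −4.73. It averaged 149.6 CPM in basal cells and 11793 CPM in band 4. Mt4, the metallothionein of squamous epithelia, stood at −5.39, Calml3 at −5.68 and Fabp5, a fatty acid binding protein, at −5.09. The protease inhibitors Spink5, Serpinb12 and Serpinb3a stood at −5.37, −5.24 and −4.65. The transcription factors Grhl3, Grhl1 and Zfp750, which drive late epidermal differentiation, stood at −5.00, −4.54 and −5.15, and Elovl4, which makes very long fatty acids for the skin barrier, at −5.25. The other 4 were Fam25c at −5.17, Ly6g6c at −5.02, Psapl1 at −4.71 and 4833423E24Rik at −4.59.

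Band 2 adjoins the basal cells in the ranking. Of 1950 genes at 100 CPM or more, 96 were higher and 118 lower in the basal cells of all 6 mice. Smoc2, a calcium-binding matrix protein, had the largest positive median ratio at 1.14 (0.51 to 1.67), followed by Cdh13 at 0.92, Rbms3 at 0.89, the Notch ligand Dll1 at 0.88, Igfbp5 at 0.84 and Itga3 at 0.83. In the other direction Mt4 stood at −2.73, Krtdap at −2.45, Ces1h at −2.16, Calml3 at −2.14 and Cdkn1a, the cell cycle inhibitor p21, at −2.04. Among the genes that lay the same way in 6 mice, the most negative ratios were thus larger in size than the most positive.

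The 884 cells set aside for mitosis counts had a median Krt5 of 7831 CPM, near that of the basal cells. Other medians lay further apart, at 4426 against 6140 CPM for Krt14, 891 against 1545 for Col17a1 and 1239 against 2292 for Dst. Krt15 had 7413 against 9249 CPM, Krt4 4432 against 1404 and Krt13 4471 against 1796. The cells set aside were not ranked, so the 2 groups also differ in differentiation. Set against the mitosis group, of 2125 genes at 100 CPM or more, 285 were higher and 370 lower in the non-cycling basal cells of all 6 mice. Those higher included Adamts1 (median ratio 2.09, 1.30 to 3.52), Ccnd2, the cyclin D2 of early G1 (1.85, 1.68 to 2.37), Dll1 (1.57), Dusp6, a phosphatase that restrains ERK (1.36), and Mxd4, a partner of Max that opposes Myc (1.40). Ccnd2 averaged 1337 CPM in the non-cycling and 349.7 CPM in the mitosis group. Those lower included genes of cell division outside the rule's lists, such as Nuf2 at −4.65, Hmmr at −4.63, Spc25 at −4.47 and Aspm at −4.28. Of the basal cells, 581 had no count of any gene of the mitosis list, which is 81.4% to 91.2% of them in a mouse. Those with no count of the DNA replication list were fewer, at 66.0% to 82.4% of the basal cells of a mouse.

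The lists of basal gene groups show how each function was spread along the ranking. As background, 661 of the 2231 genes with at least 100 CPM in band 1 or band 4 were higher in the basal cells of all 6 mice. The list counts below have no such limit of level, so they are not like for like with it. Of 26 genes of basement membrane anchorage, 15 were higher in basal than in band 4 cells in all 6 mice. Their summed level had medians of 7959, 7146, 2796 and 980 CPM in bands 1 to 4. Itga6, which pairs with Itgb4, went from 1180.5 to 112 CPM between bands 1 and 4. Of 20 transcription factors of basal keratinocytes, 10 were higher in all 6 mice. Trp63, the master regulator of stratified epithelia, went from a median of 752 CPM to 173 CPM, and Sox2, which is needed to specify the esophagus, from 661 to 316 CPM. Klf5, a factor of proliferating epithelia, had 2079 CPM in band 1 and 2103 CPM in band 4, and only 2 of 6 mice had more of it in basal cells. In the Notch list the ligands Jag2 (491 to 1.8 CPM) and Dll1 (147 to 0 CPM) followed the basal end. Hes1, a target of Notch signalling, stood at 187 CPM in band 1 and 273 CPM in band 4, and Jag1 at 123 and 171 CPM. In the YAP and TEAD list, the coactivator Yap1, the scaffold Amotl1 and the LIM protein Ajuba went from 333, 256 and 224 CPM to 182, 65.7 and 58.6 CPM.

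The basal cells of a mouse were not uniform in their keratins. Of the summed counts of Krt5, Krt14 and Krt15 in a mouse, Krt5 took 33.6% to 40.1%, Krt14 19.5% to 27.3% and Krt15 33.9% to 42.7%. These are shares of counts and not of protein. Between cells of a mouse the 10th and 90th percentiles of Krt14's share lay at 3.32% to 12.4% and 35.97% to 45.99% over the mice, and those of Krt15's share at 15.1% to 23.5% and 53.3% to 63.6%. Krt15 had the highest count of the 3 in 38.2% to 60.5% of the cells of a mouse, Krt5 in 30.6% to 55.9% and Krt14 in 8.82% to 21.4%, ties counted for each. Cells without any Krt4 or Krt13 count were 0 of 200 in aged mouse 2 and 16 of 94 (17.0%) in young mouse 2, with the other mice between.

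Shares of cells with a count were compared after each cell was thinned to 1000 counts, which left out 66 shallower basal cells. Krt15 was then counted in 98.2%, 95.1%, 72.3% and 39.8% of the cells of bands 1 to 4, against 98.4%, 96.5%, 80.5% and 50.9% without thinning. Median counts per cell were 1865 in band 1 and 2603 in band 4. Col17a1 was counted in 70.1% of basal and 1.64% of band 4 cells after thinning, and the latter was read as background. Over mice the Krt15 share of thinned basal cells was 99.6% ± 0.62 in the aged group against 97.3% ± 4.60 in the young group (SD, 3 mice each), a value that the ranking on Krt15 holds near its ceiling, so no test is given. The difference changed sign without young mouse 1 (−0.36 percentage points) and at 500 counts per cell (−0.85).

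Most basal cells without Krt15 were in young mouse 1, and this set was singled out after its values were seen. Of its 145 basal cells 9 had no Krt15 count at a median depth of 1664 counts, while 1 cell in aged mouse 2 (428 counts) and 1 in young mouse 2 (849 counts) were the others. The 9 cells held 181 counts of Krt14 and 105 of Krt5. They also held 19 counts of Krt10 and 26 of Krt1, keratins of cornifying skin, which lay in 3 and 4 of the 9 cells. The other 136 basal cells of that mouse held 0 and 7 counts of them. Krtdap had 39 counts in the 9 cells and 35 in the 136. Krt13 had 0 counts in the 9 cells and 534 in the 136. Pax9, a transcription factor of the foregut, had 0 against 111 counts, Efemp1 0 against 131 and Fst 0 against 81. Hoxc8 had 11 counts in the 9 cells and 18 in the other 136, and its age call below held with the cells left out. No cell type is given to them here.

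Age was tested on the summed basal counts of the 6 mice, and edgeR called 12 of 4024 genes, 0.298% of those tested. In aged mice 10 genes were higher (0.249% of those tested) and 2 were lower (0.0497%). DESeq2 called 8, all among the 12. The higher genes were Ccn1, Ccn2, Hoxc8, Rpl10-ps3, Rgs2, Pdk4, Trib1, Ank, Atf3 and Rnd3, and the lower genes Fst and H19. All aged mice lay above all young mice in 181 genes (4.5%) and below in 308 (7.65%), which is the background for each statement below that groups did not overlap. The labels do not say whether the mice differ in litter or preparation, within or between groups, so such differences cannot be told apart from age here. Each p-value sets the difference between the groups against the variation between these mice. Positions are those of GENCODE M21 on GRCm38.

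Fst had the larger fall of the 2 lower genes. It encodes follistatin, a secreted protein that binds activin and some BMPs, and lies at chr13:114452290-114458951. Its level was 50.4, 12.4 and 38.7 CPM in aged and 299.9, 325 and 332 CPM in young mice, from 4, 4 and 8 counts against 81, 56 and 75. Every aged mouse was far below every young mouse. The means were 33.8 ± 19.4 and 319 ± 17.0 CPM (SD, 3 mice each) and the log2 fold change −3.44 (SE 0.39, edgeR adjusted p = 1.2e-07), and the gene stayed past the threshold in all 25 alternatives. H19, a maternally expressed imprinted long noncoding RNA at chr7:142575529-142578143, was the other. It stood at 453, 990 and 924 CPM in aged and 2954, 1888 and 2298 CPM in young mice, again without overlap. Its log2 fold change was −1.48 (SE 0.24, edgeR adjusted p = 0.00030), and it too passed in all 25 alternatives.

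Ccn1 and Ccn2 encode secreted matricellular proteins that bind integrins and are textbook targets of YAP and TEAD. Ccn1, at chr3:145646976-145649981, stood at 768, 599 and 851 CPM in aged and 296, 232 and 239 CPM in young mice. The means were 739 ± 129 and 256 ± 35.1 CPM (SD, 3 mice each), or 1.58 on the log2 scale (SE 0.24, edgeR adjusted p = 0.00010). It passed in 24 of 25 alternatives, the exception being a narrower basal group, the lowest 12.5% of ranked cells (edgeR adjusted p = 0.090). Ccn2, at chr10:24595442-24598683, stood at 189, 49.6 and 348 CPM in aged and 14.8, 34.8 and 17.7 CPM in young mice. Aged mouse 2 was only a little above young mouse 2, and the rest were well apart. The log2 fold change was 3.19 (SE 0.53, edgeR adjusted p = 0.00043). Ccn2 passed in 16 of the 18 alternatives that tested it. It did not pass in DESeq2 (adjusted p = 0.129) or without aged mouse 3 (edgeR adjusted p = 0.246).

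Hoxc8 and Pdk4 also separated the groups. Hoxc8, a homeobox transcription factor of the HoxC cluster at chr15:102990607-102994111, stood at 239, 344 and 237 CPM in aged and 107, 63.9 and 88.6 CPM in young mice. Its log2 fold change was 1.73 (SE 0.31, edgeR adjusted p = 0.00095), and it did not pass without aged mouse 2 or in the lowest 12.5%. Pdk4, a kinase that switches off pyruvate dehydrogenase and so saves glucose in favour of fat, lies at chr6:5483351-5496309. It stood at 151, 444 and 329 CPM in aged and 148, 75.5 and 106 CPM in young mice. Aged mouse 1 and young mouse 1 nearly touched. The log2 fold change was 1.62 (SE 0.31, edgeR adjusted p = 0.0024), and among the settings that ended the call were leaving out aged mouse 2, leaving out young mouse 2 and the lowest 12.5%.

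Rgs2, Atf3, Trib1 and Rnd3 encode intracellular regulators of signalling, transcription and the cytoskeleton. Rgs2, which speeds the turning-off of G proteins, lies at chr1:143999338-144004161 and stood at 302, 161 and 213 CPM in aged and 37.0, 81.3 and 57.6 CPM in young mice (log2 fold change 1.97, SE 0.37, edgeR adjusted p = 0.0016). The groups did not overlap, and the gene passed in 24 of 25 alternatives, all but the lowest 12.5%. Atf3, a stress-induced transcription factor at chr1:191170296-191218039, stood at 1083, 1108 and 1490 CPM in aged and 799.6, 534 and 660 CPM in young mice (log2 fold change 0.95, SE 0.22, edgeR adjusted p = 0.041). Trib1, a pseudokinase that directs proteins to degradation, lies at chr15:59648350-59657099 and stood at 227, 220.3 and 305 against 96.2, 134 and 79.7 CPM (1.38, SE 0.31, edgeR adjusted p = 0.024). Rnd3, which opposes actin contraction, lies at chr2:51130438-51149111 and stood at 315, 298 and 411 against 226, 145 and 75.3 CPM (1.25, SE 0.30, edgeR adjusted p = 0.041). Atf3, Trib1 and Rnd3 did not overlap between groups, yet they passed in only 13, 13 and 8 of 25 alternatives, and without aged mouse 3 none of them did.

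The last 2 calls rest on few or uncertain counts. Ank, a membrane protein that exports pyrophosphate and citrate, at chr15:27466677-27594909, had 7, 15 and 12 counts in the aged group against 0, 1 and 2 in the young, or 88.1, 46.5 and 58.0 against 0, 5.81 and 8.86 CPM. The log2 fold change was 3.61 (SE 0.85, edgeR adjusted p = 0.041), and the gene passed in 5 of the 15 alternatives that tested it, in none that left out a mouse. Rpl10-ps3, a processed copy of a ribosomal protein gene at chr9:50344201-50344968, stood at 201, 211 and 77.4 CPM in aged and 33.3, 29.0 and 26.6 CPM in young mice (log2 fold change 2.48, SE 0.45, edgeR adjusted p = 0.0011). It passed in 20 of the 21 alternatives that tested it, all but the one without aged mouse 2 (edgeR adjusted p = 0.067). Its counts are uncertain, since reads of near-identical copies can be assigned to it.

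**Figure D2:**
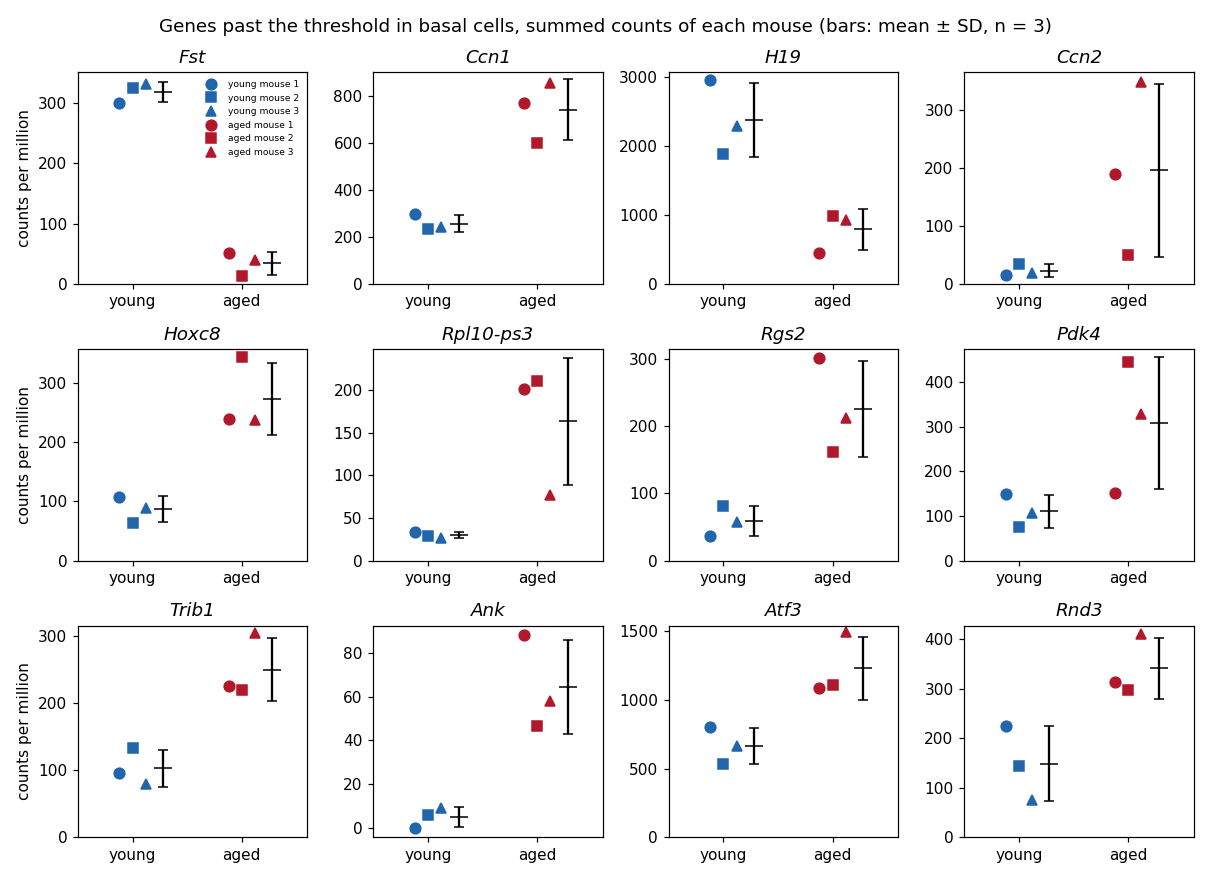
Level of each gene past the threshold (vertical axis, CPM) in the basal cells of each mouse, young in blue and aged in red, 1 symbol per mouse number, with mean and SD beside each group. Fst and H19 are lower in all aged mice, and for Pdk4 the highest young mouse (148 CPM) and the lowest aged mouse (151 CPM) almost meet.

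Other genes separated the groups without passing the threshold. Thbs1, the matricellular thrombospondin 1, stood at 63.0, 96.2 and 135 CPM in aged and 44.4, 23.2 and 8.86 CPM in young mice. It had a log2 fold change of 2.01 (edgeR adjusted p = 0.061), and Pappa, a protease that frees insulin-like growth factors, had 2.26 (edgeR adjusted p = 0.070). On the lower side the values were −1.45 for Igfbp4, an insulin-like growth factor binding protein that Pappa cuts, −1.63 for Ddx39, −1.34 for Nuak1, −0.93 for Sparc, −2.03 for Meis2 and −0.72 for Fgfr2. Cenpa, Smim7, Nav1 and Bax stood at −1.47, −1.09, −1.51 and −1.90. The edgeR adjusted p of these 10 ran from 0.12 to 0.466. Igfbp4 stood at 12.6, 71.4 and 67.7 CPM in aged and 152, 238 and 133 CPM in young mice. Fgfr2, a receptor for stromal growth factors, stood at 315, 769 and 808 CPM in aged and 1288, 1214 and 921 CPM in young mice.

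Of the 12 called genes 6 had a promoter entry in RefSeq (GRCm38.p6), and the 250 bases before the start are shown for 4 of them that were higher in aged mice and held a searched motif. Capitals mark TGACGT (part of the cAMP response element TGACGTCA), the TEAD motif GGAATG and the CArG box bound by serum response factor, each searched on both strands, so that ACGTCA and CATTCC are the same motifs read on the other strand.
Ccn1 (chr3:145649986-145650235, minus strand): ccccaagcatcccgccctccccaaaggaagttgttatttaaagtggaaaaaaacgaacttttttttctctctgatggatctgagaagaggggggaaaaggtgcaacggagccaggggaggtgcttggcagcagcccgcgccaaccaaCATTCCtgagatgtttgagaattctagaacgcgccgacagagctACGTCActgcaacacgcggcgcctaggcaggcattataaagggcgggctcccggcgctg
Rgs2 (chr1:144004150-144004399, minus strand): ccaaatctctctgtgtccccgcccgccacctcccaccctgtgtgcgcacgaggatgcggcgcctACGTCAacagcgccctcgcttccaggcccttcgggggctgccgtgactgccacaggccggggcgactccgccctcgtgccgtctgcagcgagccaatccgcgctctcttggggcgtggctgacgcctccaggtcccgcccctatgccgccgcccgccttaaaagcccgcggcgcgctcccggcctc
Atf3 (chr1:191183334-191183583, minus strand): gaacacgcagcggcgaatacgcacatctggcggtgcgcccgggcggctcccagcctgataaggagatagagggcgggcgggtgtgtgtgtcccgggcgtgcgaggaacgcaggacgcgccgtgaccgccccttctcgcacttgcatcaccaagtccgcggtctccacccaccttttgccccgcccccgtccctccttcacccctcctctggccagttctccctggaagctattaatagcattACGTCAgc
Rnd3 (chr2:51149112-51149361, minus strand): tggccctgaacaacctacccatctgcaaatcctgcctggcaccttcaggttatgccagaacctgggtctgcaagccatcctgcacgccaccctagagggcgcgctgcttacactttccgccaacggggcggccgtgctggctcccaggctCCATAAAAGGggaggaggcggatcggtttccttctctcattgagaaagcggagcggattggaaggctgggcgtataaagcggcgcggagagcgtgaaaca

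TGACGT begins 59, 186 and 8 bases before the start of Ccn1, Rgs2 and Atf3, counted to the end of the motif farthest from the start, and 6.47% of the 32851 promoter windows of this length hold it. It was added to the search after these sequences had been read. GGAATG lies 103 bases before the start of Ccn1 and in 12.6% of all windows, and a CArG box lies 100 bases before the start of Rnd3 and in 1.47%. The full TGACGTCA (1.55% of windows) and the AP-1 motif TGANTCA (6.75%) were in none of the 6. The windows of Pdk4 and Ank held no searched motif. The Atf3 window lies before a RefSeq start inside the gene as GENCODE draws it, not before its outermost start. The Rgs2 window overlaps the first bases of the GENCODE gene. These are matches of letters and not measured binding sites.

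The same genes were followed into the cells that had started to differentiate. Tested in band 2, edgeR called 6 of 3995 genes, and in band 4 it called 3 of 4677. Hoxc8 and H19 were called in both, at log2 fold changes of 1.80 and −1.59 in band 2 and 1.52 and −3.07 in band 4 (edgeR adjusted p = 0.0075, 0.00078, 0.0094 and 0.00020). Ccn1 in band 2 stood at 442, 384 and 688 CPM in aged and 97.3, 178 and 141 CPM in young mice (log2 fold change 1.95, edgeR adjusted p = 0.00095). Pdk4 (1.62) and Atf3 (1.08) were also called there (edgeR adjusted p = 0.045 and 0.046). In band 4 Ccn1 had at most 24.3 CPM and Fst was at 0 in 5 of 6 mice, so that neither could be tested. Fst in band 2 stood at 151, 18.3 and 0 CPM in aged and 108, 344 and 80.7 CPM in young mice. The groups overlapped and it was not called (log2 fold change −2.11, edgeR adjusted p = 0.347).

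Whether the age difference itself was unlike that of the other bands was tested with the mouse as a term. Against band 4, 1 of 5646 genes passed (0.0177%) and against band 2, 1 of 4786 (0.0209%), with 243 and 189 at an unadjusted p under 0.05. The gene was Krt4 in both, which the ranking itself used, so its values are a description and support nothing. Krt4 stood at 1083, 3301 and 2143 CPM in aged and 1218, 772 and 1590 CPM in young basal cells, which overlap. None of the 12 called genes passed. Nearest was H19 against band 4, whose change with age was less negative in basal cells by 1.64 (SE 0.36, edgeR adjusted p = 0.052). The difference was −1.21 for Fst (SE 0.72) and −0.39 for Ccn1 (SE 0.29) against band 2 (edgeR adjusted p = 1.00 for each). No difference in size between the bands was detected for those genes.

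**Figure D3:**
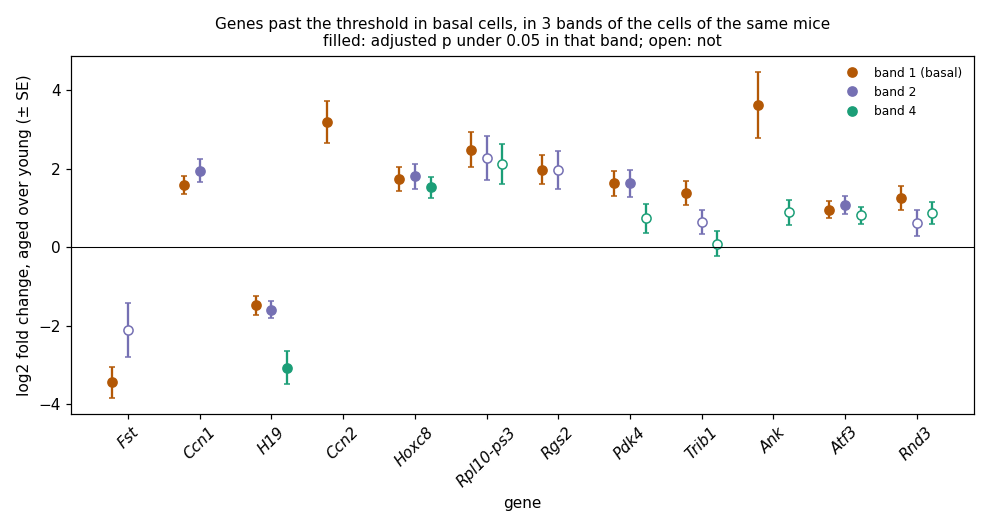
Log2 fold change, aged over young, with its SE (vertical axis) for the 12 genes past the threshold in basal cells, in bands 1, 2 and 4 of the ranked cells. A missing point means the gene had too few counts there to be tested. Hoxc8 and H19 have filled points (past the threshold) in all 3 bands, and for H19 the band 4 value is −3.07.

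Gene lists give the wider setting of these calls. Each list is described by its counts and median beside the median of all tested genes, which was −0.0028 with 49.7% of genes above 0. DESeq2 made no call outside the 12, so a list with 0 calls has 0 in both tools. Lists of basal structure and identity held none of the calls. Of basement membrane genes 16 were tested with 0 called and a median log2 fold change of 0.021, of basal transcription factors 17 with 0 called and 0.18, and of cell junction genes 16 with 0 called and −0.17. At an unadjusted edgeR p under 0.05 these lists had 0, 1 and 0 genes, against 247 (6.14%) of all tested. Col7a1, the anchoring fibril collagen, had the lowest p of its list (−0.75, SE 0.46, edgeR adjusted p = 0.910). Myc, which drives growth, was above in all aged mice at 516, 580.2 and 701 against 470.1, 424 and 403 CPM, without passing (0.55, edgeR adjusted p = 0.672).

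Immediate early genes, which are switched on quickly by a stimulus, had 2 of 21 tested genes called, Rgs2 and Atf3. The median of the list was 0.55 and 20 of the 21 genes were above 0. Jun stood at a log2 fold change of 0.57, Junb at 0.50, Fosb at 0.80, Klf6 at 0.77, Nr4a1 at 0.69, Egr1 at 0.44 and Fos at 0.43, none of which passed. Socs3 stood at −0.06. All aged mice lay above all young mice in 7 of the 21, and 15 had an unadjusted edgeR p under 0.05. The summed level of the list was 27349, 31466 and 39437 CPM in aged and 27712, 20984 and 23134 CPM in young mice, so aged mouse 1 lay below young mouse 1. The list's median stayed between 0.40, without aged mouse 3, and 0.61, without young mouse 1, over the 25 alternatives. In band 2, 21 of 21 were above 0 with a median of 0.63, and in band 4, 19 of 22 with 0.26. No time of day or duration of cell preparation is given in the labels, so handling was not tested.

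Signalling lists differed in how their members lay. Of the YAP and TEAD list 13 genes were tested, with Ccn1 and Ccn2 called higher and none lower. The median was 0.25, and 8 of the 13 were above 0. Over the 25 alternatives the median ran from 0.029 in the narrower basal group, where none was called, to 0.46 in a wider one. It was 0.12 without aged mouse 2 and 0.12 without young mouse 1. Amotl2, a scaffold of the same pathway, had 1.32 (SE 0.50, edgeR adjusted p = 0.569). Of EGF receptor ligands and feedback genes 8 were tested and none called, all 8 were above 0, 3 had an unadjusted edgeR p under 0.05, and the median was 0.60. Its feedback inhibitors Spry1 (1.00), Dusp6 (0.65) and Spry2 (1.11) lay above in all aged mice (edgeR adjusted p = 0.410, 0.674 and 0.838). Of the BMP, activin and TGF-beta list 13 were tested, with Fst called lower and a median of −0.017. Smad7, an inhibitor inside this pathway, stood at 75.5, 46.5 and 91.9 CPM in aged and 22.2, 17.4 and 8.86 CPM in young mice, without passing (2.11, SE 0.62, edgeR adjusted p = 0.234). Bmp4 had 1.14 (edgeR adjusted p = 0.674). Of the Notch list 8 were tested with 0 called, 1 at an unadjusted edgeR p under 0.05, and a median of 0.28. Dll1 had 0.80 (edgeR adjusted p = 0.640). Of the Wnt list 11 were tested with 0 called, 0 at that unadjusted p, and a median of −0.21.

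Among the remaining lists, Hox genes had Hoxc8 alone called of 5 tested, with its cluster neighbours Hoxc6 at 0.59, Hoxc5 at 0.17 and Hoxc4 at −0.54. Imprinted genes had H19 called of 2 tested. Of 20 genes of fuel choice Pdk4 alone was called, with a median of 0.067, and Cpt1a, which brings fatty acids into mitochondria, had 0.82 (edgeR adjusted p = 0.456). Keratinocyte differentiation had 0 of 16 called, 5 at an unadjusted edgeR p under 0.05, and a median of 0.24. This list holds Krt4 and Krt13, which the ranking used, so its values partly describe the choice of cells. Its list sum was 4243, 8814 and 7362 CPM in aged and 6571, 3973 and 6045 CPM in young mice. It was highest in aged mouse 2, whose basal band ended at the highest ratio. Krt4 and Krt13 gave 3301 and 2131 CPM of the sum there, so the sum supports nothing about age. Quiescence and cell cycle entry had 0 of 10 called (median 0.061), p53 and senescence 0 of 12 (−0.19), heat shock 0 of 12 (0.082), antioxidant defence 0 of 21 (−0.043), interferon and antigen presentation 0 of 6 (0.22), and cytokines 0 of 3 (0.10). At an unadjusted edgeR p under 0.05 these 6 lists had 1, 2, 1, 0, 1 and 0 genes. B2m had 1.23 (edgeR adjusted p = 0.289) and was high in aged mouse 1 alone, at 907 CPM against 130 to 183 CPM in the other mice. Of 54 ribosomal protein genes tested none was called, 47 were above 0, 3 had an unadjusted edgeR p under 0.05 and the median was 0.20, which became −0.043 without aged mouse 1.

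**Figure D4:**
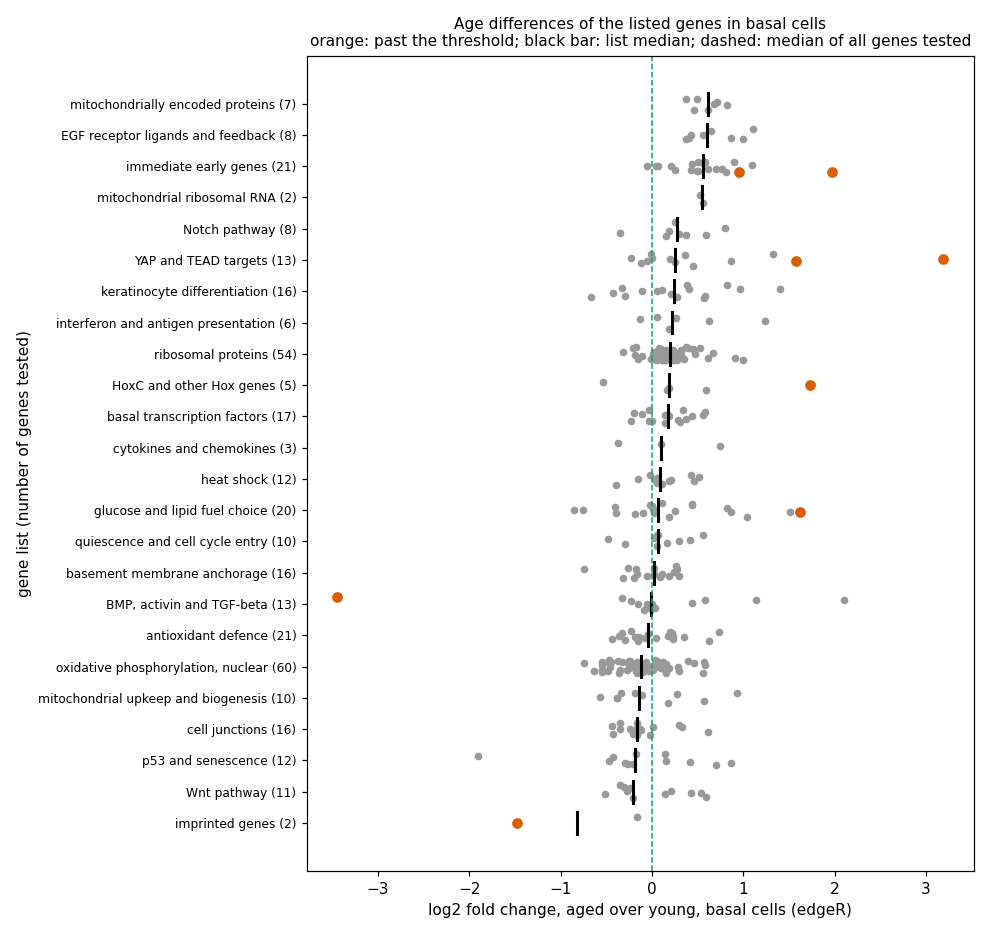
Log2 fold change, aged over young, in basal cells (horizontal axis) of every tested gene of each list (rows, with the number tested), with the list median as a black bar and genes past the threshold in orange. The immediate early and EGF receptor lists have medians of 0.55 and 0.60, and Fst stands at −3.44.

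Mitochondrial genes were measured in the same cells. The mitochondrial share of the summed basal counts was 8.27%, 10.05% and 6.52% for aged mice 1, 2 and 3, against 5.82%, 6.35% and 5.69% for young mice 1, 2 and 3. Aged mice lay above young mice without overlap, though aged mouse 3 exceeded young mouse 2 by little. The means were 8.28% ± 1.76 and 5.95% ± 0.35 (SD, 3 mice each), a difference of 2.33 percentage points. The rule cut cells at 20% of this same value, so no test is given for it. Over all cells the limit removed 18 in aged mouse 2 and 0 to 4 in each other mouse. The difference was 1.44 points without aged mouse 2 and 3.20 without aged mouse 3. Without the 20% limit the groups overlapped, with a difference of 2.26 points (exact permutation p = 0.2). In aged mouse 2, 100 of 200 basal cells were above 10% mitochondrial counts, against 2 to 9 cells in each other mouse.

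Counts of mitochondrial genes make up the share at which the rule cut cells. Their values with age are therefore given without a test. All 7 genes of mitochondrially encoded proteins that passed the low-count filter were above 0, with a median log2 fold change of 0.62. They ran from 0.37 for mt-Co1 to 0.82 for mt-Nd6. Without aged mouse 2 the median was 0.27, and without aged mouse 3 it was 0.80. The 7 had a median of 0.59 in band 2 and 0.59 in band 4. The ribosomal RNAs mt-Rnr1 and mt-Rnr2 had 0.52 and 0.56, with aged above young in all mice. Nuclear genes of oxidative phosphorylation had 0 of 60 called, 3 at an unadjusted edgeR p under 0.05, and a median of −0.12, and 40 of them were below 0. With the basal sums thinned to the total of the shallowest mouse, their median was −0.00025 with 24 of 48 above 0. In band 2 it was −0.068 with 24 of 61 above 0, and in band 4 it was 0.058 with 36 of 62. Aged mice lay below all young mice in 11 of the 60, such as Ndufa12, a subunit of complex I (−0.75), and Cyc1, cytochrome c1 (−0.63), with edgeR adjusted p = 0.640 and 0.674. Genes of mitochondrial upkeep had 0 of 10 called, 0 at that unadjusted p, and a median of −0.14.

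**Figure D5:**
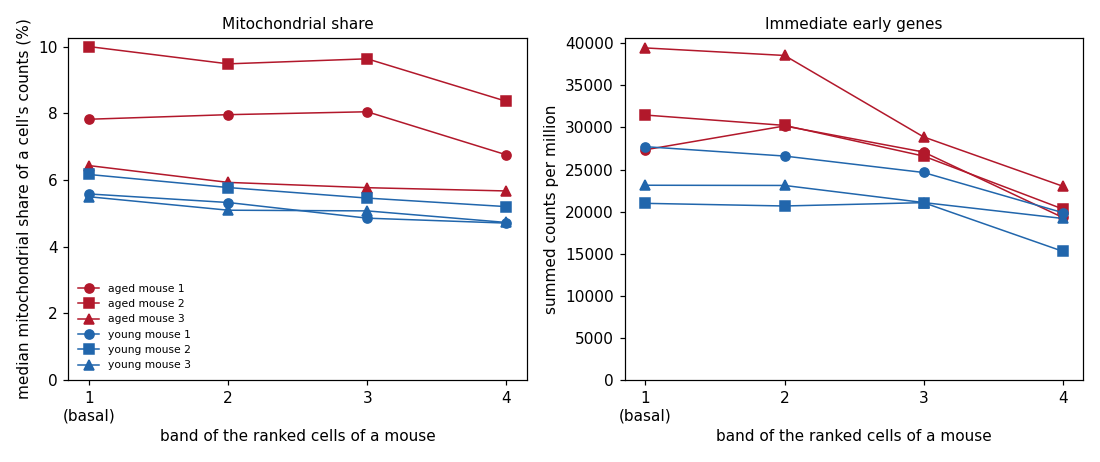
Median mitochondrial share of a cell's counts in percent (left) and summed level of the immediate early list in CPM (right) in the 4 bands of ranked cells (horizontal axis), with 1 line per mouse, aged in red and young in blue. Aged mouse 2 has the highest share in each band (10% in band 1), and aged mouse 3 the highest immediate early level there, at 39437 CPM.

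Counts per basal cell and the share of cells that could be ranked were also set side by side. Median counts per basal cell were 2260.5, 1712 and 2006 in aged and 1848, 1871.5 and 1945 in young mice, which overlap (difference 104.7, exact permutation p = 0.7), and without aged mouse 1 the difference was −29.2. The share of kept cells that could be ranked, of which the basal cells are a fixed fraction, was 68.5% ± 6.87 over aged mice against 64.3% ± 6.66 over young mice (SD, 3 mice each; exact permutation p = 0.6).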

How the data were processed

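Whole numbers of counts, 1 per gene and cell barcode, were deposited for each of 12 libraries. UMI-tools 1.0.0, STAR 2.7, Subread 2.0.0, featureCounts, Seurat and GRCm38 are named without roles, per the submitters' processing notes. Whether strand was used in counting is not given in the sources used here. Both libraries of a mouse were summed per barcode. Doublets were called with Scrublet (scanpy 1.11.5) and kept, with their removal as an alternative. Basal counts were summed per mouse and compared by quasi-likelihood tests in edgeR 4.0.16 (R 4.3.3) with TMM scaling, filterByExpr, two-sided p and Benjamini-Hochberg adjusted p under 0.05. The second tool was DESeq2 1.42.0. The fit was tested on simulated data. Exact two-sided permutation over mice (scipy 1.17.1) served for single values. CPM are from summed counts and fold changes from the model. Totals of 79418 to 322312 basal counts per mouse limit what is detectable for genes of few counts.

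The members and gene lists were chosen with earlier results of these data known. Named genes were the markers, all genes past the threshold, non-overlapping genes up to 12 per direction by p, up to 3 genes of lowest p in a list and, for 4 lists, the 4 highest levels, and the 15 strongest genes per direction between bands. Other genes named from a list illustrate it and were picked after their values were seen.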

Additional observations from a re-analysis of the deposited data

Results flagged for a closer look

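Krt4 was the 1 gene whose age difference in the basal cells stood apart from that in other bands of the same mice. Its log2 fold change with age was larger in the basal cells than in band 4 by 0.92 and than in band 2 by 0.76. Krt4 counts are part of the ranking that defines the bands, so both values describe the choice of cells, are given without a p-value and support nothing. The basal band ended at a higher ratio in aged mouse 2 than elsewhere, and without aged mouse 2 no gene passed against band 2. Groups of 3 mice are too small for a check on single outlying mice.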

How the results depend on the processing

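Over 25 alternatives edgeR's 12 calls between aged and young basal cells became 7 when the mouse number entered as a block, 7 with barcodes 1 base apart merged and 2 in the lowest 12.5% of ranked cells, and 8 to 18 with a mouse left out. Mouse numbers do not pair the mice, since same-numbered mice had correlations of −0.129, −0.036 and −0.068, and no aged mouse correlated best with the young mouse of its number; the 7 block calls were all among the 12. The merging of barcodes and the removal of cells with fibroblast counts or without Krt15 were chosen after seeing the data. Fst and H19 were called in every setting. The 1 gene that differed by age against band 4 became 0 in DESeq2, the lowest 12.5% and with merged barcodes, 2 with RLE scaling, no low-count filter or the lowest 33.3%, 4 with cells thinned before ranking, and 1 to 5 with a mouse left out. Against band 2 it became 2 with no filter and 2 with thinned cells, and 0 to 2 with a mouse left out. The log2 fold change of Krt13 turned negative with library size alone (−0.027), library 1 alone (−0.21) and the lowest 33.3% (−0.017), with aged mouse 2 left out (−0.15) and with young mouse 2 left out (−0.16), and ran from −0.16 to 0.22 with a mouse left out. The difference in counts per cell ran from −29.2 to 245.1, and that in Krt15 detection from −0.36 to 3.63 with a mouse left out and was −0.85 at 500 counts. The causes were not tested. Scaling by library size alone moved the median of all genes to −0.082.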
